A study of Mus musculus with 6 samples.

Results

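The genes described here encode 10 enzymes that modify or crosslink collagen: the lysyl oxidases Lox, Loxl1, Loxl2, Loxl3 and Loxl4, the lysyl hydroxylases Plod1, Plod2 and Plod3, and the catalytic subunits of collagen prolyl 4-hydroxylase P4ha1 and P4ha2. They were chosen by name, with earlier results of these data known, and all 10 were found by GENCODE symbol among the 23154 gene IDs counted. RNA-seq was performed on C2C12 cells, an established line of mouse myoblasts, which are precursors of muscle fibres. A stable line carrying pINDUCER20b-HA-NUR77, which makes the nuclear receptor NUR77 with an HA tag when doxycycline is present, was compared with a line carrying pINDUCER20b-GFP, with 3 libraries per line, each from its own dish. Both lines received doxycycline at 1 µg/mL for 18 hours, starting 24 hours after seeding, so the drug is common to the groups. The labels name 1 stable line per construct, and a difference between the lines themselves cannot be told apart from an effect of the construct.

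Collagen chains are modified in the endoplasmic reticulum before the triple helix closes. Prolyl 4-hydroxylase converts prolines to hydroxyproline, which stabilises the helix, and lysyl hydroxylases convert lysines to hydroxylysine, which carries sugars and sets the chemistry of later crosslinks. These enzymes use iron, oxygen, 2-oxoglutarate and ascorbate. Lysyl oxidases are copper enzymes that act outside the cell and oxidise lysine and hydroxylysine side chains to aldehydes, from which covalent crosslinks between collagen or elastin molecules form. In skeletal muscle, these modifications shape the connective tissue around fibres and the basement membrane on which myoblasts sit.

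Upstream sequences were read from RefSeq (GRCm38.p6) as the 250 bases before each annotated start, which were held for 5 of the 10 genes. None was held for Lox, Loxl1, Loxl2, Loxl3 or Plod2. The sequences of Plod1, Plod3, P4ha1 and P4ha2 are shown because each hydroxylase family holds a gene that fell (Plod1, P4ha2) beside a gene that did not pass the test (Plod3, P4ha1). Capitals mark the cores of the hypoxia response element (ACGTG or GCGTG) and the YY1 motif (CCATNTT), on either strand.
Plod1 (chr4:147936777-147937026, minus strand): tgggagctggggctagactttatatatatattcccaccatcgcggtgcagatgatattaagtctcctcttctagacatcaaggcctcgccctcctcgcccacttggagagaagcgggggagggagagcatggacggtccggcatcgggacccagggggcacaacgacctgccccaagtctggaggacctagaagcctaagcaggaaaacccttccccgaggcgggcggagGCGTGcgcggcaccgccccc
Plod3 (chr5:136986769-136987018, plus strand): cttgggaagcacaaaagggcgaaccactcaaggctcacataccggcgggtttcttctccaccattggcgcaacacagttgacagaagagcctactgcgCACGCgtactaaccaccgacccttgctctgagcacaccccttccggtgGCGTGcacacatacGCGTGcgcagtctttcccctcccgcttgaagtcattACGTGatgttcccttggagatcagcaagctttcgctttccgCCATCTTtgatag
P4ha1 (chr10:59323046-59323295, plus strand): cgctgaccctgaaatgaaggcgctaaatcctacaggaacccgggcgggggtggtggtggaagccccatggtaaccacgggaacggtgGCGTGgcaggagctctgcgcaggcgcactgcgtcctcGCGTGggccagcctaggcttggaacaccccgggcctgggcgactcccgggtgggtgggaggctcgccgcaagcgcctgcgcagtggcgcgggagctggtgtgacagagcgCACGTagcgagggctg
P4ha2 (chr11:54100674-54100923, plus strand): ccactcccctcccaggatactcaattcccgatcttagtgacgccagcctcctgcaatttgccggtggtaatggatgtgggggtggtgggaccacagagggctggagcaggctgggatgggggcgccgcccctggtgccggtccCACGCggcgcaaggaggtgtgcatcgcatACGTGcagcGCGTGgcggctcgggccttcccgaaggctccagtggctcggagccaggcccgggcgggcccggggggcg

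At least 1 hypoxia core stood in the window of each of the 5 genes (these 4 and Loxl4), and in 38.6% of all 32851 RefSeq windows of the same length. The 5 windows held 55.6% to 76% G and C bases, and the windows compared with were not matched for this. ACGTG alone occurred in 16.6% of windows and GCGTG alone in 28.2%. Plod1 held 1 match, starting 20 bases before the start, and Plod3 held 4, P4ha1 3 and P4ha2 3. The core bound by NUR77-type receptors, AGGTCA, occurred in 0 of the 5 windows and in 14% of all windows. The YY1 letters occurred only in the Plod3 window among the 5, starting 13 bases before the start, and in 12.4% of all windows. The P4ha2 window lies inside the longer GENCODE gene model and overlaps none of its exons. These matches are letters in a window, and binding was not measured.

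The 6 libraries held 13906096 to 22821446 reads counted in genes. Levels are given in CPM, the count scaled to a common library size with TMM factors, and as CPM per kilobase of exon where genes are compared with each other. The transcript of the mouse NUR77 gene itself, Nr4a1, stood at 22.5 ± 3.03 CPM in the HA-NUR77 libraries and 20.4 ± 7.43 CPM in GFP (SD, n = 3; edgeR adjusted p = 0.698). Nr4a1 does not check the labels, because no source used here names the species of the insert. All 7 markers of the labelled cell type, myoblasts, were high enough to test, with Des at 3298 and 2500 CPM and Myod1 at 119 and 91.6 CPM in HA-NUR77 and GFP. Summed myoblast markers ran from 5734 to 6516 CPM against 3638 to 4832 CPM, and 2 of 7 rose, Cdh15 and Itga7. Des and Myod1 had positive log2 fold changes and did not pass (edgeR adjusted p = 0.0872 and 0.0754). The log2 fold change of the remaining 3 was negative, −0.43 for Vcam1, −0.23 for Myf5 and −0.28 for Pax7, and none of these passed. With the replicate number as a block 4 of the 7 were higher and Myf5 was lower (edgeR adjusted p = 0.0477), and without GFP replicate 3, or by DESeq2, 4 were higher and 0 lower. Markers of differentiating muscle summed to 17760 to 21520 CPM in HA-NUR77 and 11150 to 16650 CPM in GFP. Of these 10 markers, Myh3 and Myh8 rose and 8 did not pass, while 8 rose with the block. The number of these that rose was 8 without GFP replicate 3, 1 without HA-NUR77 replicate 2 or 3 or GFP replicate 1, and 5 by DESeq2, and with the block and an offset for length and GC content 8 were higher and 2 lower. Of 6 tested markers of fibroblasts and fibro-adipogenic cells, Ly6a, Cd34 and Dpt rose and Pdgfra and Pi16 fell, with Tcf21 at 0, and the list summed to 682 to 835 CPM against 527 to 571 CPM. In each fit without 1 library 2 rose and 2 fell. Dpt was scarce, at 1.05 and 0.36 CPM in HA-NUR77 and GFP. Dcn, the most abundant marker of this list, did not pass (393 and 361.5 CPM, edgeR adjusted p = 0.616). Macrophage, endothelial and adipocyte lists summed to at most 6.46 CPM in any library, with Adipoq, Plin1, Cidec, Lep and Tie1 at 0. Csf1r rose (edgeR adjusted p = 0.0443), on 36, 29 and 13 reads in HA-NUR77 against 2, 10 and 7 in GFP. The osteochondral list summed to 94.5 to 99 CPM against 87.4 to 98.8 CPM, nearly all from Sox9, which rose, and Runx2, which was lower with the block (edgeR adjusted p = 0.00632, against 0.0888), with Acan and Ibsp at 0. Over all genes tested 12.4% were higher and 13.2% lower, or 23.5% and 24.6% with the block. Fits without 1 library called 642 to 1489 genes higher and 850 to 1572 lower, against 1549 and 1655 in the main fit. DESeq2 called 1617 and 1878, and the block with the offset 3248 and 2690. The part of these markers in the results below was not tested.

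Lox and Loxl1, the main lysyl oxidases of these cells, were 2.03-fold and 1.95-fold lower in the libraries labelled HA-NUR77 than in GFP, and the hydroxylases changed far less. Of the 10 genes, Lox, Loxl1, Plod1 and P4ha2 fell, 0 rose and 6 did not pass edgeR's quasi-likelihood test. Over all 12509 genes tested, 13.2% were lower and 12.4% higher, so 25.6% were called in either direction. The median log2 fold change was −0.31 for the 10 genes and 0.01 over all genes tested. Because the 10 genes were chosen with earlier results of these data known, neither their count nor their median is independent evidence. The CPM of HA-NUR77 and GFP libraries did not overlap for the same 4 genes, and for 45.6% of all genes, so separation of the groups is common here. With the replicate number as a block, 6 were lower and 1 higher, against 24.6% and 23.5% of all genes (48.1% in either direction). In bulk RNA, fewer cells that express a gene and less RNA per cell cannot be told apart.

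**Figure D1:**
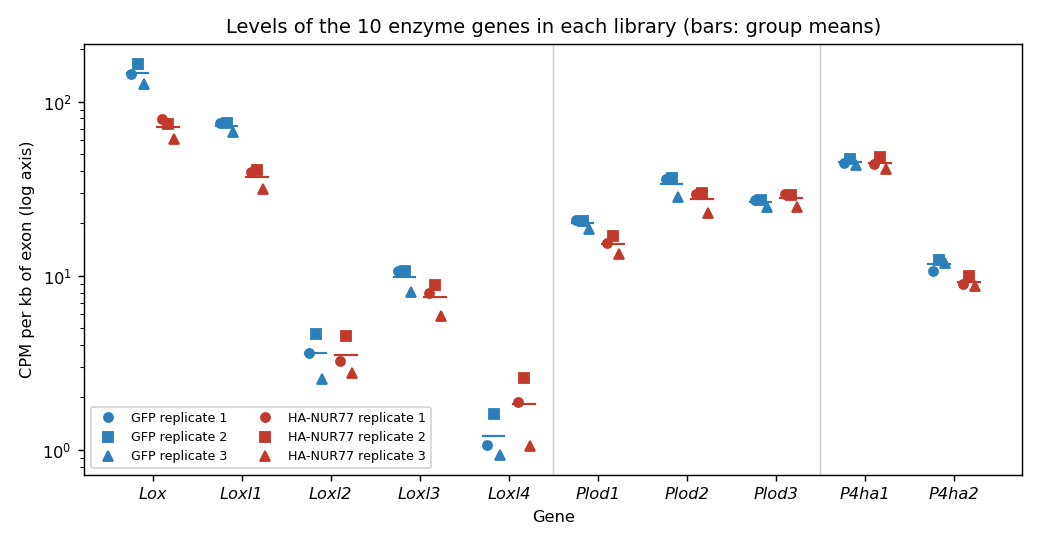
Level of each of the 10 genes in each of the 6 libraries, in CPM per kilobase of exon on a log axis, with group means as bars and replicate numbers as symbols. Lox and Loxl1 sit apart between GFP (blue) and HA-NUR77 (red), whereas P4ha1, Plod3 and Loxl2 overlap.

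Lox (ENSMUSG00000024529; GRCm38 chromosome 18, 52516067 to 52529867, minus strand) encodes lysyl oxidase, the founding member of the family. It had 381, 354 and 290 CPM in HA-NUR77 replicates 1, 2 and 3 and 687, 790 and 603 CPM in GFP replicates 1, 2 and 3. All 3 HA-NUR77 libraries lay below all 3 GFP libraries, with replicate 3 the lowest of each group. The means were 342 ± 46.8 CPM and 693 ± 93.8 CPM (SD, n = 3), a 2.03-fold fall (95% interval 1.63 to 2.53; log2 fold change −1.02, SE 0.14, edgeR adjusted p = 0.00263). Within replicate numbers the log2 ratio was −0.85, −1.16 and −1.06.

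Loxl1 (ENSMUSG00000032334; chromosome 9, 58287738 to 58313186, minus strand) encodes an oxidase known from mouse work for its part in elastic fibre upkeep. Its levels were 130, 133 and 104 CPM in HA-NUR77 and 248, 248 and 221 CPM in GFP. The groups lay apart, and the lowest library was again replicate 3 on each side. The fall was 1.95-fold (95% interval 1.64 to 2.32; log2 fold change −0.97, SE 0.11, edgeR adjusted p = 0.00126), with within-number log2 ratios of −0.93, −0.90 and −1.09. The falls of Lox and Loxl1 were past the threshold in all 16 alternative fits, including each fit without 1 library.

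The other 3 lysyl oxidases were scarcer and did not pass. Loxl3 (ENSMUSG00000000693; chromosome 6, 83034173 to 83052562, plus strand) had 36.8, 40.5 and 26.9 CPM in HA-NUR77 and 48.8, 49.1 and 37.3 CPM in GFP, and the groups overlapped. Its log2 fold change was −0.37 (SE 0.17, edgeR adjusted p = 0.143, or 6.59e-04 with the block), and the ratio was below 1 within all 3 numbers. Of its exon bases, 11.6% lie opposite exons of Htra2 on the other strand, and no source used here gives the strand setting of the counting, so its count is uncertain. Loxl2 (ENSMUSG00000034205; chromosome 14, 69609068 to 69695834, plus strand), an oxidase of basement membrane collagen, had 17.4, 24.2 and 14.9 CPM against 19.5, 24.9 and 13.8 CPM. Its 2 ranges nearly coincided, and its log2 fold change was −0.03 with a 95% interval of −0.60 to 0.53 (edgeR adjusted p = 0.934). Loxl4 (ENSMUSG00000025185; chromosome 19, 42593982 to 42612813, minus strand) rested on the fewest reads, 154, 248 and 62 in HA-NUR77 and 76, 99 and 58 in GFP. Its log2 fold change was 0.63 (SE 0.34, edgeR adjusted p = 0.199, or 0.00537 with the block), with a 95% interval of −0.15 to 1.42. The libraries overlapped because HA-NUR77 replicate 3, at 4.45 CPM, lay below GFP replicates 1 and 2, at 4.51 and 6.80 CPM.

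**Figure D2:**
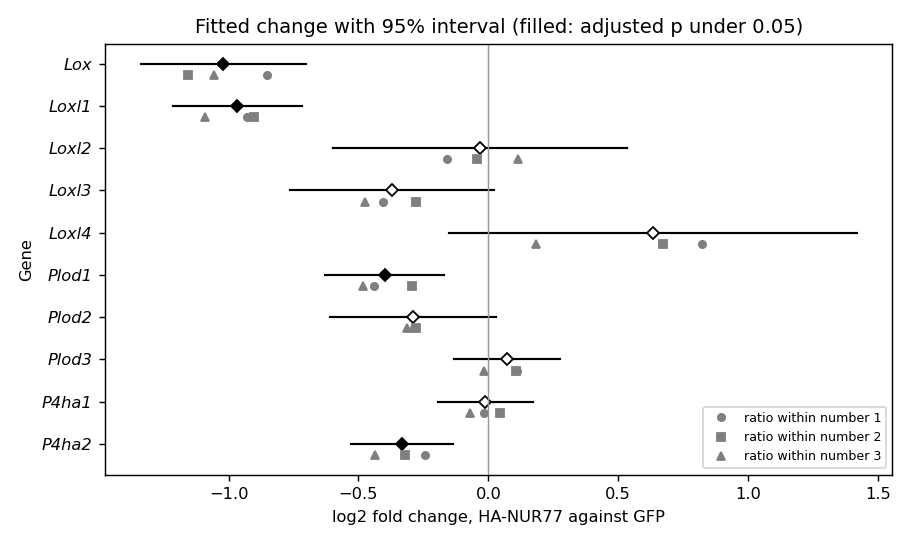
Fitted log2 fold change of each gene, HA-NUR77 against GFP (diamonds, filled where the adjusted p was under 0.05), with its 95% interval as a line and the log2 ratios within replicate numbers as grey symbols. Lox and Loxl1 lie near −1, Plod1 and P4ha2 between −0.3 and −0.4, and Loxl4 at 0.63 has the widest interval.

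Among the lysyl hydroxylases, Plod1 fell by a small amount, and neither Plod2 nor Plod3 passed. Plod1 (ENSMUSG00000019055; chromosome 4, 147909753 to 147936767, minus strand), which hydroxylates lysines of the helical part of collagen, had 104, 114 and 90 CPM in HA-NUR77 and 141, 140 and 126 CPM in GFP. Every HA-NUR77 library lay below every GFP library. The fall was 1.32-fold (95% interval 1.12 to 1.55; log2 fold change −0.40, SE 0.10, edgeR adjusted p = 0.0241). Leaving out HA-NUR77 replicate 1 or 3 or GFP replicate 1 or 2 ended the call, with adjusted p of 0.0775, 0.053, 0.0894 and 0.0736 in that order.

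Plod2 (ENSMUSG00000032374; chromosome 9, 92542223 to 92608428, plus strand) encodes the hydroxylase of the telopeptides, the collagen ends at which lysyl oxidases act. Its levels were 160, 161 and 123 CPM in HA-NUR77 and 195, 195 and 152 CPM in GFP. The groups overlapped because GFP replicate 3 lay below HA-NUR77 replicates 1 and 2, yet within numbers the log2 ratios were close together at −0.29, −0.28 and −0.31. Its log2 fold change was −0.29 (SE 0.14, edgeR adjusted p = 0.157, or 6.69e-04 with the block). Plod3 (ENSMUSG00000004846; chromosome 5, 136987019 to 136996648, plus strand), whose protein also adds sugars to hydroxylysine, had 133, 132 and 111 CPM against 124, 123 and 113 CPM. The log2 fold change of Plod3 was 0.07, with a 95% interval of −0.13 to 0.27 (edgeR adjusted p = 0.576). Exons of Znhit1 on the other strand lie opposite 11.7% of its exon bases, so the count of Plod3 is uncertain in the same way as that of Loxl3.

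Of the prolyl 4-hydroxylase subunits, P4ha2 fell and P4ha1 did not pass. P4ha1 (ENSMUSG00000019916; chromosome 10, 59323296 to 59373304, plus strand), the main catalytic subunit in most cells, had 181, 198 and 169 CPM in HA-NUR77 and 184, 192 and 177 CPM in GFP. The range of the GFP libraries lay inside that of the HA-NUR77 libraries. Its log2 fold change was −0.01 with a 95% interval of −0.20 to 0.17 (edgeR adjusted p = 0.928). P4ha2 (ENSMUSG00000018906; chromosome 11, 54100095 to 54131665, plus strand), which forms the second isoenzyme, had 56.1, 62 and 54.2 CPM against 66.5, 77.3 and 73.4 CPM. The groups lay apart, and the fall was 1.26-fold (95% interval 1.10 to 1.44; log2 fold change −0.33, SE 0.08, edgeR adjusted p = 0.0263). Leaving out HA-NUR77 replicate 1 or 3 or GFP replicate 2 or 3 ended it, with adjusted p of 0.0907, 0.0681, 0.0851 and 0.0531.

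On the per-length scale the order of levels in GFP was Lox, Loxl1, P4ha1, Plod2, Plod3, Plod1, P4ha2, Loxl3, Loxl2 and Loxl4, from 145 ± 19.6 to 1.2 ± 0.36 CPM per kilobase (SD, n = 3). This scale uses the exon bases of all transcripts of a gene together. They were 6239 bases for P4ha2 against 3060 in its longest transcript, 5392 against 3663 for Plod2, and 4114 against 4043 for P4ha1. The order of P4ha1 and Plod2, and any overlap of P4ha2 with Loxl3, thus depend on the length used. In GFP the ranges of neighbours in this order overlapped for P4ha2 and Loxl3 only. In HA-NUR77 they overlapped for Plod2 and Plod3 and for P4ha2 and Loxl3. P4ha1 stood below Loxl1 in all 3 GFP libraries and above it in all 3 HA-NUR77 libraries, where the means were 44.4 ± 3.57 and 37.1 ± 4.85 CPM per kilobase.

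Lox held most of the summed per-length level of its family in every library. Its share was 60.3%, 56.9% and 59.6% in HA-NUR77 and 61.4%, 64.2% and 61.6% in GFP, a difference of −3.48 percentage points (exact two-sided permutation p = 0.1, the smallest that 20 splits of 6 libraries allow). The ranges of this share did not overlap. Loxl1 held 30.6% ± 0.65 and 31.4% ± 1.87 (SD, n = 3), and these ranges overlapped. The summed level of the family was 121 ± 17 CPM per kilobase in HA-NUR77 and 232 ± 26.4 CPM per kilobase in GFP, a ratio of 0.523. The summed lysyl hydroxylases stood at 70.4 ± 8.4 and 80 ± 7.17 CPM per kilobase and the summed prolyl hydroxylases at 53.7 ± 4.21 and 56.4 ± 2.35 CPM per kilobase.

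Within the lysyl hydroxylases, Plod2 held 39.8%, 39.3% and 37.5% of the per-length level in HA-NUR77 and 42.9%, 43% and 39.4% in GFP (exact permutation p = 0.2). These ranges overlapped. Plod3 made up 39.6% ± 1.06 in HA-NUR77 and 33.2% ± 1.35 in GFP (SD, n = 3), with no overlap, and Plod1 21.6% ± 0.87 and 25.1% ± 0.7. P4ha1 held 83%, 82.9% and 82.5% of the prolyl hydroxylase level in HA-NUR77 and 80.7%, 79% and 78.6% in GFP. This difference of 3.39 percentage points had an exact permutation p of 0.1, again the smallest possible, and the ranges did not overlap. The size of the P4ha1 share depended on the length used. Its means in HA-NUR77 and GFP were 70.7% and 65.9% by longest transcript and 76.1% and 71.8% by reads alone, with the same direction and exact permutation p.

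The collagens that these enzymes act on also fell, which sets the enzyme levels against a different amount of substrate transcript. All 7 collagen genes tested fell (median log2 fold change −0.91; 5 to 7 of them without 1 library), while the elastin gene Eln was too low to test. By library totals only, by upper-quartile factors and with the length and GC offset, 6 of the 7 were past the threshold. Over all genes tested 13.2% were lower in the main fit. Col1a1, the main fibrillar collagen of connective tissue, fell 5.24-fold (edgeR adjusted p = 7.76e-05), Col4a2 of basement membranes 1.97-fold (4.53e-04) and the fibril-organising Col5a1 2.03-fold (0.00232). Col3a1, the most abundant of them, fell 1.35-fold (0.0449), and that call was lost without any 1 library other than GFP replicate 3. The summed collagen level ran from 992 to 1228 CPM per kilobase in HA-NUR77 and from 1780 to 2112 CPM per kilobase in GFP.

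Per 100 units of this collagen level, lysyl oxidases stood at 11.1, 10.6 and 10.3 in HA-NUR77 and 11.1, 13.6 and 11.5 in GFP. The means were 10.6 ± 0.4 and 12 ± 1.33 (SD, n = 3), and the highest HA-NUR77 and lowest GFP library were almost equal. Lysyl hydroxylases stood at 6.23, 6.19 and 6.12 in HA-NUR77 and 3.99, 4.43 and 4.03 in GFP, so each HA-NUR77 library was above each GFP library. Prolyl hydroxylases stood at 4.44, 4.73 and 5.02 against 2.62, 3.12 and 3.08, again without overlap. The summed lysyl and prolyl hydroxylases themselves differed little, at HA-NUR77 to GFP ratios of 0.88 and 0.951. Both separations thus reflect the lower collagen sum, and the collagens were listed with their falls known. Col3a1 made up 34.9% to 47.1% of the collagen sum. Without it the lysyl oxidases stood at 19.8 ± 0.44 and 19 ± 1.58, with overlap between the lines, the lysyl hydroxylases at 11.5 ± 0.08 and 6.56 ± 0.22, and the prolyl hydroxylases at 8.82 ± 0.67 and 4.64 ± 0.35. These ratios are between transcripts and say nothing of protein or enzyme activity. They also depend on the exon length used, which for Col1a2 was 12426 bases against 5348 in its longest transcript.

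**Figure D3:**
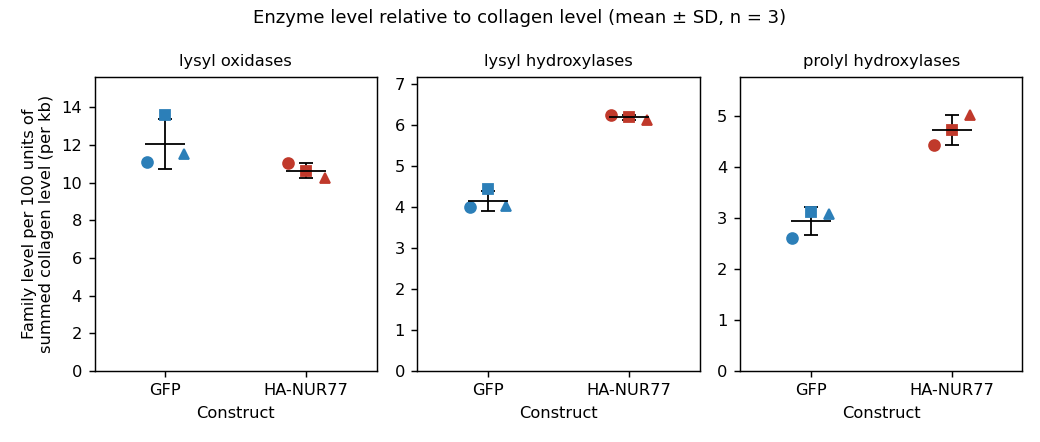
Summed level of each enzyme family per 100 units of summed collagen level in each library, both in CPM per kilobase, with mean and SD (n = 3) and replicate numbers as symbols. The lysyl oxidases of the 2 lines lie at 10.3 to 13.6, whereas relative to the collagen sum, which fell, both hydroxylase families are higher in HA-NUR77 than in any GFP library.

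Genes that work beside these enzymes fell more often than they rose. Of 46 genes of hydroxylation partners, folding and export, trimming, collagens and crosslinking scaffold, 40 were tested, of which 22 fell, 2 rose and 16 did not pass, with a median log2 fold change of −0.42. With the block 28 were lower and 6 higher. Over all genes tested 13.2% were lower and 12.4% higher, or 24.6% and 23.5% with the block. The same shares apply to each list below. The lists hold the collagens and other matrix genes whose falls were known when they were written, so their direction is not independent evidence.

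Among hydroxylation partners, 4 of 9 tested genes fell and 0 rose (median log2 fold change −0.25). P4ha3, a further catalytic subunit, fell 2.54-fold to 3.04 ± 1.01 CPM (SD, n = 3; edgeR adjusted p = 0.00618), and the prolyl 3-hydroxylase family member P3h3 fell 2.35-fold (0.00359). P3h4 (1.23-fold, 0.0404) and Crtap (1.24-fold, 0.043), which work in complexes that modify collagen prolines or lysines, fell as well, but lost the call without HA-NUR77 replicate 1 or 3 or GFP replicate 1 or 2. P4hb, the protein disulfide isomerase that is the common beta subunit of prolyl 4-hydroxylase, stood at 802 ± 100 and 879 ± 89.3 CPM (log2 fold change −0.13, SE 0.12, adjusted p = 0.449). With upper-quartile factors 2 of the partners were lower, and with the block 6 were lower and P3h2 was higher (adjusted p = 0.031, against 0.0627 without it).

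Of 12 genes of collagen folding and export, 5 fell, 0 rose and 7 did not pass (median log2 fold change −0.36). Serpinh1, the collagen chaperone HSP47, fell to 723 ± 105 CPM against 1026 ± 75.9 CPM in GFP (SD, n = 3; edgeR adjusted p = 0.0222). Creb3l1, a transcription factor known to drive collagen secretion genes, fell 1.95-fold (0.0183), the prolyl isomerases Fkbp7 and Fkbp10 1.44-fold each (0.00991 and 0.0488) and Mia3, the cargo receptor TANGO1, 1.30-fold (0.0107). Without 1 library between 2 and 8 of these genes were lower, and the calls of Serpinh1, Fkbp10 and Creb3l1 were lost in 3, 4 and 2 of the 6 such fits, each time including those without HA-NUR77 replicate 1 and GFP replicate 2. With the block 8 were lower, and Tmem38b and Hspa5 were higher (adjusted p = 3.58e-05 and 0.0076, against 0.0905 and 0.153).

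Of 5 tested genes that trim procollagen, the proteases Adamts2 (2.29-fold, edgeR adjusted p = 9.51e-05) and Bmp1 (1.56-fold, 0.00287) fell. Adamts2 removes the amino-terminal propeptide, and Bmp1 removes the carboxy-terminal propeptide and also activates lysyl oxidase. Pcolce2, an enhancer of Bmp1, rose 1.57-fold (0.00434). Of 7 tested genes of crosslinking scaffold and copper supply, 4 fell: Postn, a matrix protein known to bind Bmp1, 6.48-fold (5.37e-04), the elastic fibre proteins Fbln5 3.30-fold (0.00167) and Efemp2 1.80-fold (0.00808), and fibronectin Fn1 1.76-fold (0.00634). Atp7a, the pump that loads copper into secreted enzymes such as lysyl oxidases, rose to 75.4 ± 11.5 CPM against 53.6 ± 4.55 CPM in GFP (SD, n = 3; edgeR adjusted p = 0.0258). The rise of Atp7a was lost in 5 of the 6 fits without 1 library, all but that without HA-NUR77 replicate 2. With the block Adamts14, a further procollagen protease, was higher (edgeR adjusted p = 0.0473, against 0.281), and Fmod, the collagen-binding fibromodulin, was lower (0.0113, against 0.087).

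**Figure D4:**
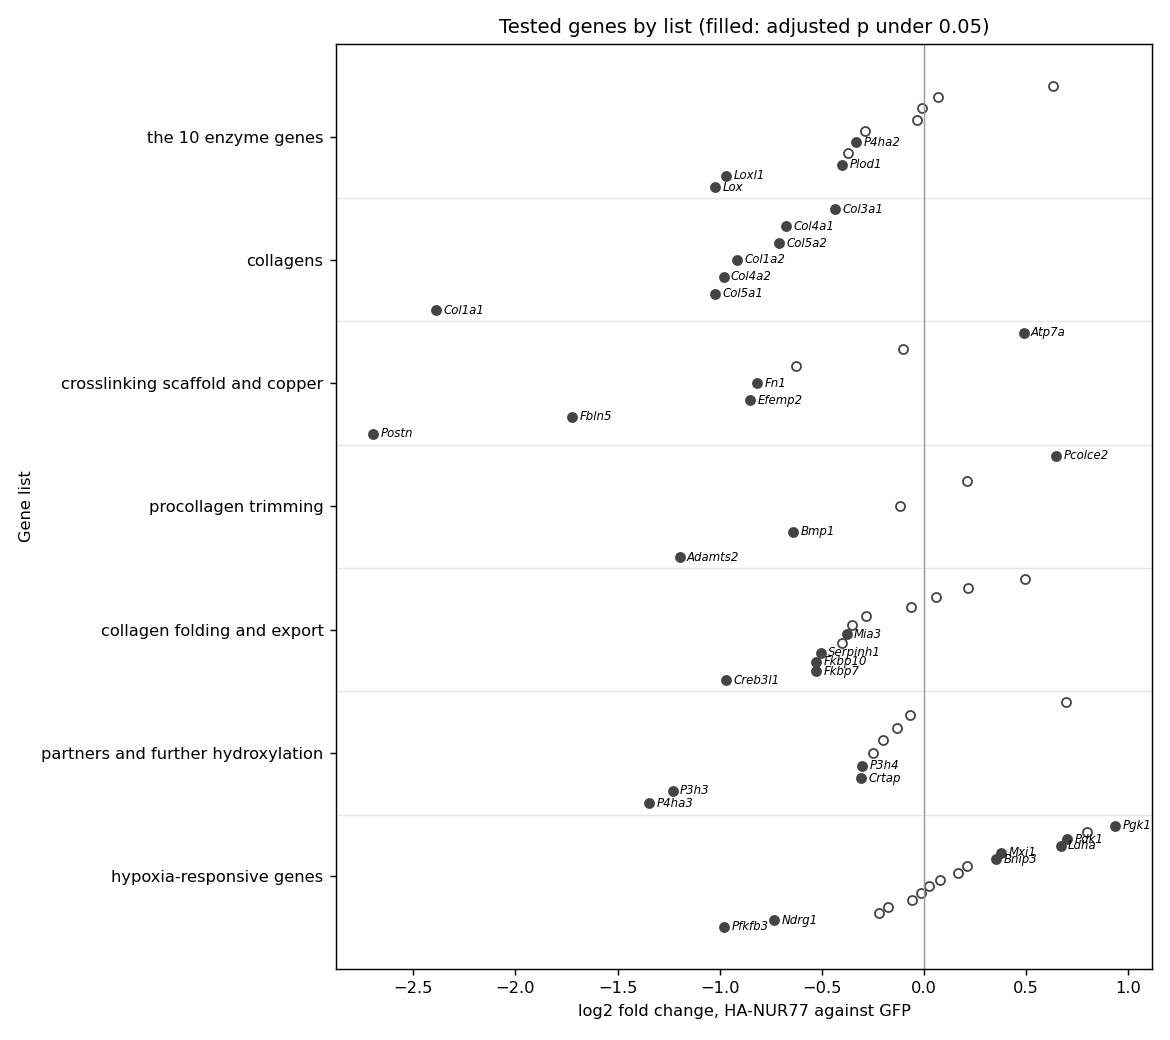
Log2 fold change of each tested gene, HA-NUR77 against GFP, by list, with filled and named points where the adjusted p was under 0.05. The 7 collagens all lie left of 0, with Col1a1 the farthest of them and Postn of the scaffold list farther still, while the hypoxia-responsive genes fall on both sides.

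Lox, Loxl2, Plod2, P4ha1 and P4ha2 are known to be induced by hypoxia, and other genes known for that response moved in both directions. Of 18 such genes 16 were tested, of which 5 rose, 2 fell and 9 did not pass (median log2 fold change 0.12). Over all genes tested 12.4% rose and 13.2% fell. The glycolytic genes Pgk1 (1.92-fold, edgeR adjusted p = 2.88e-04) and Ldha (1.59-fold, 0.00213), the pyruvate dehydrogenase kinase Pdk1 (1.63-fold, 0.00143), Mxi1 (1.30-fold, 0.00804) and the mitophagy receptor Bnip3 (1.28-fold, 0.00759) rose. Ndrg1 fell 1.66-fold (0.00204) and the glycolytic regulator Pfkfb3 1.97-fold (0.0112). Vegfa stood at 73.8 ± 4.46 and 86 ± 4.52 CPM (log2 fold change −0.22, SE 0.07, edgeR adjusted p = 0.064). With the block Vegfa was lower (0.00575) and Ankrd37 higher (0.0184, against 0.0509). That made 6 higher and 3 lower, beside 23.5% and 24.6% of all genes. The 5 rises and 2 falls were past the threshold in each fit without 1 library.

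The genes most like the leading member of each family were found by the root mean square difference of centred log2 CPM over the 6 libraries, among 10194 other genes whose mean reached 5 CPM. For Lox these were Cxadr (0.05), Id1 (0.06) and Fbn1 (0.07), against a median of 0.55 over all genes ranked. Fbn1, which encodes the microfibril protein fibrillin-1, stood at 1711 CPM in HA-NUR77 and 3454 CPM in GFP. Cxadr and Id1 were scarce, at 4.07 and 7.25 CPM in HA-NUR77 and 8 and 15.3 CPM in GFP. For Plod2 they were Adss (0.03), Elovl5 (0.03) and Elf1 (0.03), against a median of 0.28, and none of these 3 passed the test without the block. With the block at least Adss was past the threshold (edgeR adjusted p = 0.00255, against 0.164). For P4ha1 they were Mtmr9 (0.01), Gmppa (0.02) and Ubr4 (0.02), against 0.18. The measure counts the difference between the lines and the spread between replicate numbers alike. The nearest of so many genes lie far below the median by construction, so that contrast gives only the scale.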

How the data were processed

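Poly(A) RNA was sequenced from 6 libraries of C2C12 lines, made per the labels' protocols with a stranded kit (1000 ng input, 12 PCR cycles). The deposited values are raw read counts by Ensembl ID, in a table for each library. Per the submitters' processing notes the tools were TopHat2 2.1, HTSeq and DESeq2, with build mm10; annotation release and strand setting: not given in the sources used here. Symbols, positions and exon lengths came from GENCODE M21 (GRCm38, the assembly mm10 denotes), with symbols for 22872 of 23154 IDs. Every deposited column was used.

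Genes kept by filterByExpr (minimum count 10) were tested with edgeR 4.0.16 (R 4.3.3), using quasi-likelihood fits with TMM scaling and no covariate beside the group. P-values were adjusted by Benjamini-Hochberg over 12509 genes, at a threshold of 0.05. Intervals are 95% intervals of the fitted change. Family shares were compared by exact permutation over libraries. The fits were tested on simulated data.

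The members and lists were chosen with earlier results of these data known. Named genes were the 10 members, Nr4a1, the 3 genes of each list with the smallest adjusted p among those called, or its most abundant member where none passed, the 3 nearest profiles per family, and the leading cell type markers. Other called genes of short lists, and members called only with the block, were named once their values had been seen.

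Replicate numbers 1 to 3 occur in both groups, with no statement of what they share. Over genes, deviations of libraries with the same number from their group means correlated at 0.25, 0.55 and 0.48, above the 0.1 required to treat them as pairs. The pairing is thus inferred from the data, and a fit with the number as a block is given where it changes a named call or a list's count. Within groups no 2 libraries agreed within sampling noise (chi-square per degree of freedom of at least 11.4). Nothing but the dish separates replicates in the labels, so p-values measure the spread between dishes of 1 line. Alternatives were other scalings and filters, DESeq2 1.42.0, limma-voom (limma 3.58.1), an offset for exon length and GC content, and leaving out each library.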

Additional observations from a re-analysis of the deposited data

How the results depend on the processing

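Leaving out any 1 library left 2 to 4 of the 10 enzyme genes lower and 0 higher; the count was 2 when HA-NUR77 replicate 1 or 3, or GFP replicate 2, was removed. The same fits gave 15 to 24 collagen processing genes lower and 1 to 3 higher, the 1 in the absence of HA-NUR77 replicate 3. The number of calls over all genes moved as well. It was lowest without GFP replicate 1, at 642 higher and 850 lower of 12610. Highest was the fit without GFP replicate 3, at 1489 and 1572 of 12730. The main fit called 1549 and 1655 of 12509. With the replicate block 1 of the 10 genes was higher (Loxl4) and 6 lower, and with the block and the length and GC offset 2 were higher (Loxl4, and Plod3 with an adjusted p of 0.0492), and 6 collagen processing genes were higher in each of these fits. Of all 12509 genes, 2942 were higher and 3071 lower with the block, and 3248 and 2690 with the offset as well. Within replicate numbers the differences in family shares were the same, with an exact p of 0.25 each, the smallest that 3 pairs allow. For 2 genes near 0 the sign depended on the setting, and the cause was not tested. P4ha1 had a log2 fold change of 0.00014 by library totals only, 0.0097 by upper-quartile factors and −0.072 to 0.042 with 1 library left out. Loxl2 had 0.0025 by limma-voom and −0.26 to 0.19 with 1 library left out. All other alternatives kept 4 lower and 0 higher, DESeq2 and limma-voom included. At an unadjusted edgeR p under 0.05, 0 of the 10 were higher and 4 lower, beside 2543 higher and 2536 lower of all 12509 genes tested. The member with the fewest reads was Loxl4, with 58 to 248 per library, and its interval was the widest.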
